A study of Homo sapiens with 6 samples.

Results

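The 46 genes described here encode tight junction and desmosome proteins, keratins, epithelial surface proteins and regulators, and products or lineage factors of the gastrointestinal mucosa. They were taken by symbol from a list, and each of the 46 had 1 row among the 62703 genes of the table. This list and the other lists below were chosen with earlier results of these data known. The shares called within them are therefore descriptions only. Polyadenylated RNA was sequenced from HGC-27, a human cell line derived from gastric cancer, kept in RPMI medium with serum. The groups were 3 libraries of a stably transfected line with an shRNA against GXYLT2 (shGXYLT2, GXYLT2 knockdown in the labels) and 3 libraries of cells with a control shRNA (shControl, WT in the labels). The labels do not say whether each line was a clone or a pool, or whether replicates came from separate cultures, and the p-values therefore reflect the variation among these libraries alone, some or all of it possibly technical. Library totals were 22188073 to 24898425 estimated counts in shGXYLT2 and 17291138 to 22540099 in shControl. GXYLT2, a xylosyltransferase that acts on EGF repeats, averaged 5.62 ± 0.556 CPM (counts scaled to library size, by TMM) in shGXYLT2 and 21.2 ± 1.39 CPM in shControl (SD, n = 3 each).

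Epithelial cells are sealed by tight junctions, in which claudins and occludin span the membrane and the ZO proteins anchor them to actin. They are held together by desmosomes, in which desmogleins and desmocollins cross the membrane and plakoglobin, plakophilins and desmoplakin link them to keratin filaments. The gastric surface secretes mucins and trefoil peptides, and the transcription factors ZEB1, SNAI1 and TWIST1 are known repressors of many of these epithelial genes.

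Most of the 46 genes were silent or near silent in both groups. By the mean over the 6 libraries, 8 genes had 0 counts throughout (silent), 22 had counts but less than 1 CPM (trace), 10 lay at 1 to under 10 CPM (low) and 6 at 10 CPM or more (expressed). Silent and trace genes together made up 65.2% of the 46, against 39.6% of the 19856 protein-coding genes in the table, and 6 of the 46 were expressed, against 46.2% of protein-coding genes. The 6 expressed genes, DSG2, PKP4, TJP1, CLDN12, DSP and DSC2, held 93.4% to 94.4% of the summed CPM of the list in shGXYLT2 libraries and 94.4% to 94.9% in shControl libraries. At this depth a count of 0 in a library allows up to 0.12 to 0.14 CPM in shGXYLT2 and up to 0.13 to 0.17 CPM in shControl (3 counts per library), which covers counting error only. In bulk RNA, fewer cells that express a gene and less RNA per cell cannot be told apart.

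**Figure D1:**
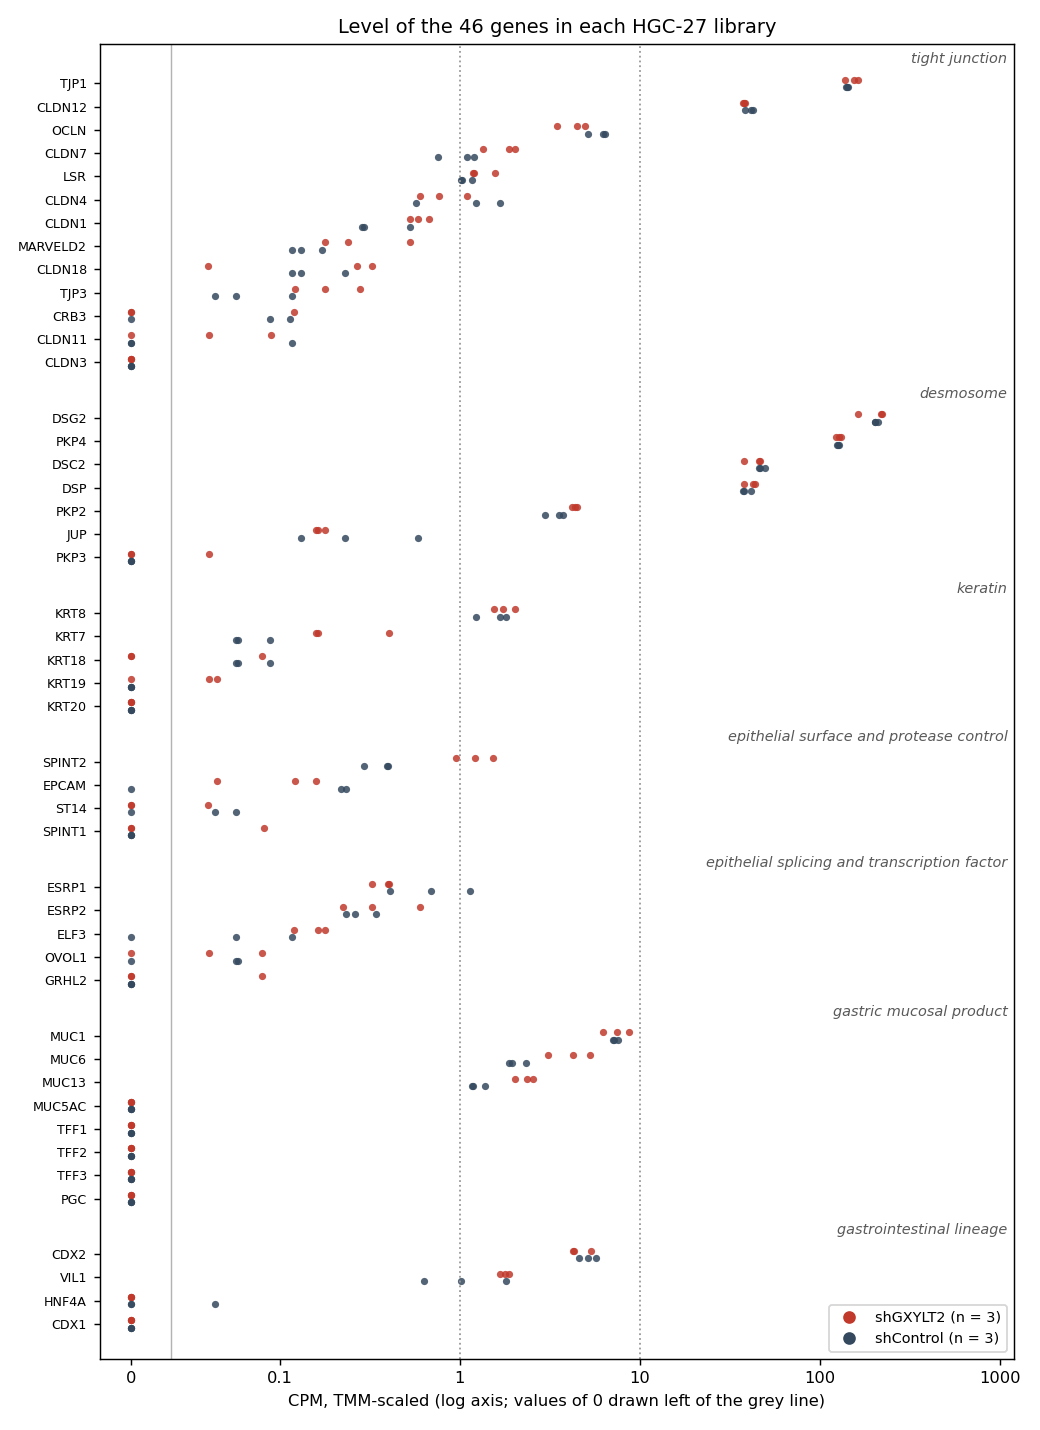
Level of each of the 46 genes in every library, grouped by role, with TMM-scaled CPM on a log axis; each point is a library, red for shGXYLT2 and dark blue for shControl, points can coincide, and dotted lines mark 1 and 10 CPM. Points left of the grey line are at 0. The 6 expressed genes lie right of 10 CPM in every library, and 8 genes have all points at 0.

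**Figure D2:**
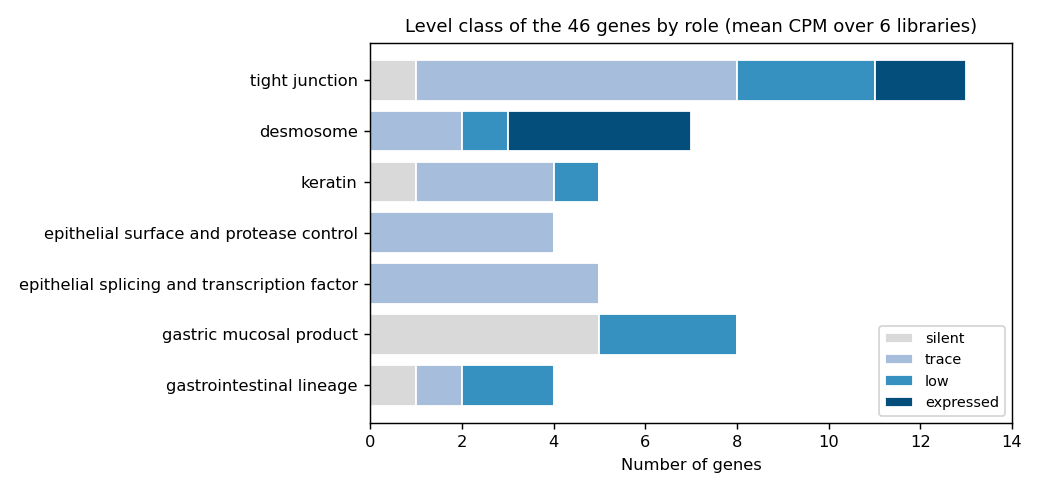
Number of genes of each role in each level class, by the mean CPM over 6 libraries. Desmosome genes have 4 of 7 members in the expressed class and tight junction genes 2 of 13, while no keratin, surface, regulator, mucosal or lineage gene reaches it.

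Most transcripts typical of differentiated stomach cells were absent or at trace level, although the labels give the cell type as gastric cancer. MUC5AC, the surface mucin of the stomach, had 0 counts in all 6 libraries, as did the trefoil peptide genes TFF1, TFF2 and TFF3 and PGC, which encodes pepsinogen C. The other 3 of the 8 mucosal genes, MUC1, MUC6 and MUC13, were detected in every library and lay in the low class. MUC6, the mucin of gastric glands, averaged 4.22 CPM in shGXYLT2 and 2.05 CPM in shControl. CLDN18, the claudin whose stomach isoform seals gastric epithelium, had 1, 8 and 6 counts in shGXYLT2 and 4, 2 and 3 in shControl. Of 22 other gastric genes 10 were silent and 10 trace. The 2 above 1 CPM were the endodermal transcription factors GATA4, at 10.2 and 11.4 CPM in shGXYLT2 and shControl, and GATA6, at 8.29 and 7.49 CPM. Of 13 intestinal genes, among them MUC2 and the cadherin gene CDH17, 9 were silent and 4 trace.

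Tight junction genes divided into a small expressed and a large trace part. TJP1, which encodes the scaffold ZO-1, had 154, 164 and 138 CPM in shGXYLT2, against 142, 139 and 143 CPM in shControl. CLDN12, a claudin that lacks the PDZ-binding tail of most others, had 37.8, 38.2 and 37.2 CPM in shGXYLT2 and 41.2, 38.4 and 42.6 CPM in shControl. The shGXYLT2 libraries spanned the shControl range for TJP1, and for CLDN12 all 3 lay just below it. On the same strand, 5.15% of the annotated exonic bases of CLDN12 belong also to GTPBP10 and 2.98% to CDK14. GTPBP10 averaged 39.4 and 41.8 CPM in shGXYLT2 and shControl, and CDK14 27.0 and 29.4 CPM. How the counting placed reads on these shared bases is not known. OCLN, which encodes occludin, CLDN7 and LSR, which encodes the receptor of tricellular junctions, lay in the low class.

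The claudins most typical of epithelia were scarcely detected. CLDN3 was silent, and CLDN4 had 15, 27 and 17 counts in shGXYLT2 and 29, 21 and 13 in shControl. CLDN1 had 17, 13 and 13 counts in shGXYLT2 against 5, 5 and 12 in shControl. CLDN11, MARVELD2 (tricellulin), TJP3 (ZO-3) and the polarity gene CRB3 had at most 13 counts in any library. Of these 7 genes only CLDN1 and CLDN4 passed the filter on low counts.

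The promoters of these genes were read from a set of RefSeq windows. The set held 41 windows for 27 of the 46 genes, and none for EPCAM, KRT18 or SPINT2, among others. A gene without a window was missing from this set, which does not mean that RefSeq lacks it. The letters CACCTG, or CAGGTG as the same motif on the other strand, form the E-box that ZEB and SNAI proteins are known to bind. In the 250 bases before the start, 16 of the 41 windows (39.0%) held the motif, against 17.5% of all 35116 windows. By level, 7 of 20 windows of silent or trace genes (35.0%) and 9 of 21 windows of low or expressed genes (42.9%) held it. Some genes had several windows, and those of MUC1 nearly coincide. Counted by gene, 14 of the 27 held the motif in a window, against 5635 of 27305 among all genes listed. By level these were 7 of 14 silent or trace genes and 7 of 13 low or expressed genes. No test was made on these shares, and a match of letters is a description, not a binding site. Median GC content of the windows was 64.8% for the list and 58.0% for all. Shown here are the windows of a trace and a low gene with the most copies and of 2 expressed genes, on GRCh38.p14 and 5′ to 3′ along each gene's strand, with the motif in capitals. CRB3 lies on the plus strand (chr19:6464021-6464270, 5 copies), CLDN7 on the minus strand (chr17:7262479-7262728, 4 copies; its other listed window held 0), DSG2 on the plus strand (chr18:31497927-31498176, 2 copies) and CLDN12 on the plus strand (chr7:90403211-90403460, 0 copies). Windows with 4 or more copies numbered 43 of 35116.
CRB3: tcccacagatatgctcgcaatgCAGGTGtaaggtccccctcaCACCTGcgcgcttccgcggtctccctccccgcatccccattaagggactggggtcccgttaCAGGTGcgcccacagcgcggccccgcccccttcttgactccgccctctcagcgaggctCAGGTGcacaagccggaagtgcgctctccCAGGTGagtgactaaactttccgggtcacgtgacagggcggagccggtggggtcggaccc
CLDN7: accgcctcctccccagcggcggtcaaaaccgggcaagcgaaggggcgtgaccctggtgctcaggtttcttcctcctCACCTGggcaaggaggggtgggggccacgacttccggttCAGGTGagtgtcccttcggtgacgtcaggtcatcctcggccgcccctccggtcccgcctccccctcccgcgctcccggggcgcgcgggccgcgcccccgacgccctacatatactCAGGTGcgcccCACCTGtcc
DSG2: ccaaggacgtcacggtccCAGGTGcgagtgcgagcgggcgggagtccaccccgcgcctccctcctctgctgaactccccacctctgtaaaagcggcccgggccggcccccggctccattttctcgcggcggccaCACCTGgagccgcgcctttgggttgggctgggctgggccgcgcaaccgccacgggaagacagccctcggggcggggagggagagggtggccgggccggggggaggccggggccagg
CLDN12: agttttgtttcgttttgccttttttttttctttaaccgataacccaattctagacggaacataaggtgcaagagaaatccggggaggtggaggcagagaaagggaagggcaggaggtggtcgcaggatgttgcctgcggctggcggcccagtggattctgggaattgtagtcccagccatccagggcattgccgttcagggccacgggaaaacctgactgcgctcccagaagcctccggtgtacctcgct

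Desmosome genes were the best represented, but not as a full set. DSG2, the desmoglein of simple epithelia, had 220, 220 and 163 CPM in shGXYLT2 and 202, 202 and 209 CPM in shControl. DSC2, its desmocollin partner, averaged 43.4 ± 4.83 CPM in shGXYLT2 and 47.4 ± 1.73 CPM in shControl (SD, n = 3 each). DSP, which encodes desmoplakin, averaged 41.4 ± 2.86 and 38.9 ± 2.06 CPM in shGXYLT2 and shControl. PKP4, a plakophilin relative found also at adherens junctions, averaged 127 ± 4.06 CPM in shGXYLT2 and 126 ± 1.58 CPM in shControl. In shGXYLT2 replicate 3, DSG2, DSC2, DSP and TJP1 had the lowest value of that group, and PKP4 the highest.

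The plaque proteins that complete the desmosome stood far lower. JUP, which encodes plakoglobin, had 4, 4 and 4 counts in shGXYLT2 and 4, 10 and 3 in shControl, and PKP3 had a single count over all 6 libraries. PKP2 was low, at 4.47, 4.19 and 4.35 CPM in shGXYLT2, all above the 3.56, 3.75 and 2.99 CPM of shControl. Beta-catenin, the relative of plakoglobin at adherens junctions encoded by CTNNB1, averaged 143 CPM in shGXYLT2 and 159 CPM in shControl.

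Levels of different genes were compared per kilobase of the deposited gene length. DSG2 stood first at 35.3 ± 5.77 CPM per kb in shGXYLT2 and 35.9 ± 0.761 CPM per kb in shControl, followed by PKP4 at 27.6 ± 0.881 and 27.3 ± 0.342 CPM per kb (SD, n = 3 each). TJP1 at 21.7 and 20.1 and CLDN12 at 10.7 and 11.5 CPM per kb, again with shGXYLT2 first, came next. Over the 6 libraries the ranges of these 4 genes did not overlap, although DSG2 in shGXYLT2 replicate 3 (28.6 CPM per kb) nearly met the highest PKP4 value (28.5 CPM per kb). DSP, MUC1 and DSC2 overlapped at 3.07 to 4.81 CPM per kb. CDX2 lay below them, without overlap with its neighbours DSC2 and KRT8. Its lowest value (1.24 CPM per kb) was still under the highest of CLDN7 (1.31 CPM per kb). From KRT8 down every neighbouring pair in the order overlapped. Among the 15693 tested genes, DSG2 was at percentile 86.5 of this length-scaled level and MUC6 at percentile 10.3.

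**Figure D3:**
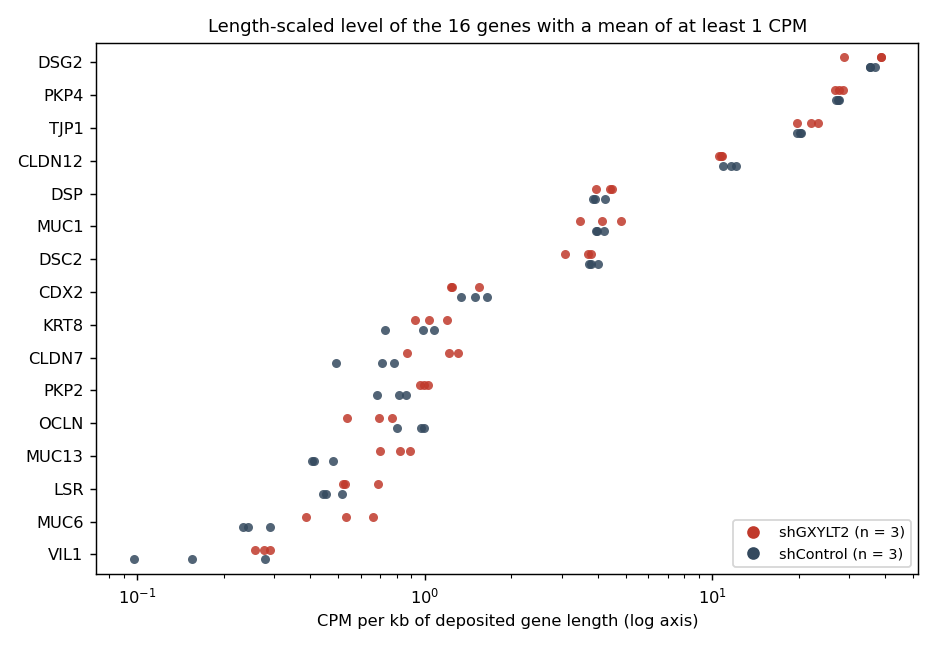
CPM per kb of deposited gene length on a log axis for the 16 genes with a mean of at least 1 CPM, a point per library, in order of the mean. DSG2, PKP4, TJP1 and CLDN12 stand apart from each other, and DSP, MUC1 and DSC2 share a range near 4 CPM per kb.

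Keratins of simple epithelium were almost absent. KRT8, which forms filaments only together with a type I keratin such as KRT18, had 39, 43 and 45 counts in shGXYLT2 and 29, 31 and 28 in shControl, or 1.77 ± 0.232 and 1.57 ± 0.303 CPM (SD, n = 3 each). KRT18 had 2, 0 and 0 counts in shGXYLT2 and 1, 1 and 2 in shControl, KRT7 had at most 9 counts in a library, KRT19 had 2 counts in all and KRT20 was silent. The KRT8 value is uncertain, since 51 pseudogene rows of KRT8 held 385 counts over the 6 libraries, against 215 for KRT8 itself, and the counting could have split them. KRT18 pseudogene rows held 109 counts and KRT18 held 6, and KRT8 and KRT18 share 525 exonic bases on opposite strands. Of 15 other keratins, KRT4 (14.7 and 17.9 CPM in shGXYLT2 and shControl) and KRT10 (14.2 and 11.8 CPM) exceeded 10 CPM, and 9 were silent. VIM, the intermediate filament gene of mesenchymal cells, averaged 2523 and 2665 CPM.

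The 9 epithelial surface genes and regulators among the 46 all lay in the trace class. EPCAM, the epithelial adhesion molecule, had 4, 3 and 1 counts in shGXYLT2 and 0, 4 and 5 in shControl. The membrane protease gene ST14 had 3 counts in all and its inhibitor SPINT1 had 2. ESRP1, a splicing factor that sets epithelial isoforms, had 10, 8 and 9 counts in shGXYLT2 against 12, 7 and 26 in shControl, and its paralog ESRP2 had 15, 8 and 5 against 6, 4 and 6. The transcription factor genes GRHL2, OVOL1 and ELF3 had at most 4 counts in any library.

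Of 6 repressors of epithelial genes, 4 were expressed beside these low levels, 1 was low (SNAI1) and 1 was trace (TWIST2). ZEB1 averaged 77.4 ± 13.9 CPM in shGXYLT2 and 94.2 ± 8.39 CPM in shControl, and TWIST1 averaged 63.8 ± 4.31 and 68.1 ± 1.15 CPM (SD, n = 3 each). SNAI1 averaged 8.89 and 6.92 CPM, SNAI2 29.4 and 25.5 CPM and ZEB2 40.3 and 40.4 CPM in shGXYLT2 and shControl. Of 5 tested repressors 0 passed the edgeR test or DESeq2. In edgeR 3 had an unadjusted p below 0.05, ZEB1 lower and SNAI1 and SNAI2 higher in shGXYLT2. Without shGXYLT2 replicate 1 or 3, 1 passed edgeR. In the edgeR fit without a low-count filter 1 also passed, ZEB1 (adjusted p = 0.0044, against 0.192 with the filter). Group means of the 5 lay between 6.92 and 94.2 CPM, and the remaining member, TWIST2, had a single count.

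Among the genes that could be tested, the share that changed with the knockdown was near that of all genes. Those that passed the test were all higher in shGXYLT2. The filter on low counts left 19 genes to test, and 27 (8 silent and 19 trace) were left out of this fit. Of the 19, 3 rose and 0 fell (quasi-likelihood test of edgeR, p adjusted by Benjamini-Hochberg below 0.05), and 7 had an unadjusted p below 0.05. Over all 15693 tested genes 12.2% passed, 5.31% as higher and 6.84% as lower, so the 15.8% called among the 19 was near the share of all genes. DESeq2 called 1 of the 46, MUC6, as higher and 0 as lower. The median log2 fold change of the 19 was 0.11, against -0.01 over all tested genes. In 9 of the 19 (47.4%) the groups did not overlap, with 7 higher and 2 lower in shGXYLT2, against 30.4% of all tested genes, and no test was made of this difference. CLDN1 and SPINT2 had passed the filter through the 3 shGXYLT2 libraries, with 1 and 0 shControl libraries at the filter's level, so the counts and medians of the 19 favour genes that are higher there.

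**Figure D4:**
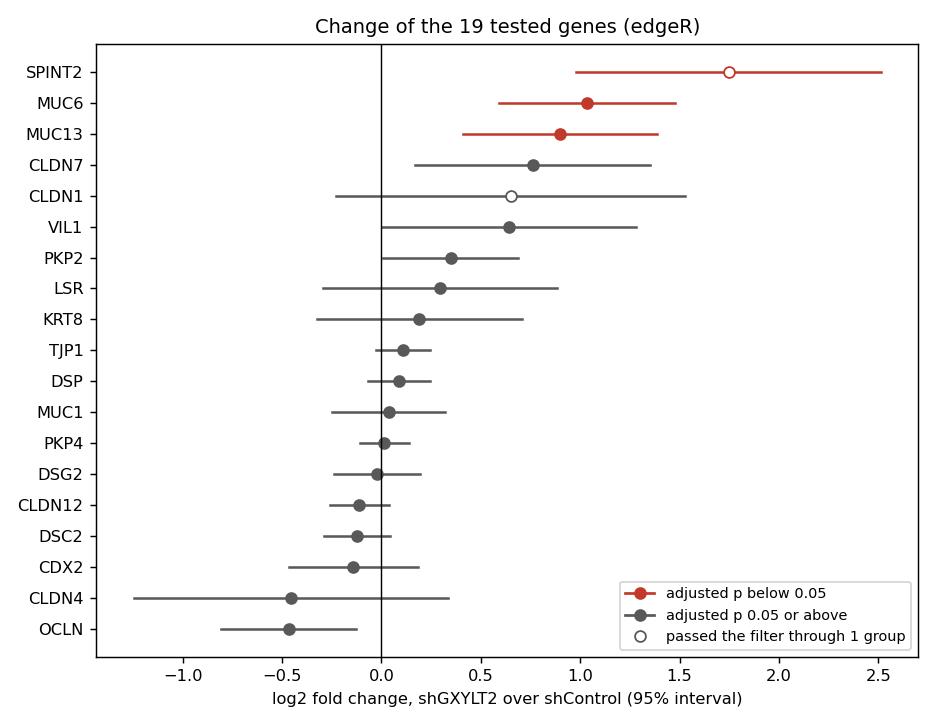
Log2 fold change of shGXYLT2 over shControl with its 95% interval for the 19 tested genes (edgeR); red marks an adjusted p below 0.05 and open circles mark genes that passed the low-count filter through the shGXYLT2 group only. SPINT2, MUC6 and MUC13 lie right of 0, and the intervals of the 6 expressed genes are narrow and include 0.

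MUC6, the secreted mucin of gastric glands, is ENSG00000184956, annotated at chr11:1012821-1036706 (GRCh38, minus strand). It had 4.27, 5.29 and 3.10 CPM in shGXYLT2 and 1.95, 1.87 and 2.33 CPM in shControl, resting on 69 to 130 counts and 32 to 53 counts per library. Every shGXYLT2 library lay above every shControl library. The rise was 2.05-fold (log2 fold change 1.03, SE 0.211, edgeR adjusted p = 0.0029), and it was called under all 13 alternatives, with adjusted p of 1.3e-05 to 0.026. Mucin genes hold tandem repeats, on which short reads are placed with less certainty.

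MUC13, a membrane-bound mucin of the gut surface, is ENSG00000173702, annotated at chr3:124905442-124953819 (minus strand). It had 2.55, 2.36 and 2.02 CPM in shGXYLT2 and 1.38, 1.17 and 1.19 CPM in shControl, again without overlap. The rise was 1.86-fold (log2 fold change 0.90, SE 0.233, edgeR adjusted p = 0.015). The call was lost with DESeq2 (adjusted p = 0.0504) and without shGXYLT2 replicate 1 (0.0634), shControl replicate 2 (0.0586) or shControl replicate 3 (0.0725), in a range of 0.010 to 0.0725 over the alternatives.

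SPINT2, an inhibitor of membrane serine proteases such as the ST14 product, is ENSG00000167642, annotated at chr19:38244035-38292614 (plus strand). Its estimated counts were 24, 30 and 34 in shGXYLT2 and 7, 5 and 9 in shControl, or 0.958, 1.22 and 1.53 CPM against 0.402, 0.293 and 0.395 CPM. The fitted difference was 3.36-fold (log2 fold change 1.75, SE 0.367, edgeR adjusted p = 0.0036). No shControl library reached the 0.447 CPM of the filter, so the gene was tested because of the group where it was higher. Tested without a filter its edgeR adjusted p was 4.9e-04, in a range of 4.9e-04 to 0.026 over 11 alternatives. The next lowest was 0.0024, in edgeR with upper-quartile factors. The other alternatives gave no call, since a filter at 1 CPM in 3 libraries left SPINT2 out and DESeq2 gave it no adjusted p. Its deposited values are fractional, and 4.65% of its annotated exonic bases belong also to another gene of the same strand, which had at most 2 counts in a library.

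MUC1, a membrane mucin of many epithelia and the highest of the mucosal genes, had 7.50, 6.26 and 8.70 CPM in shGXYLT2 and 7.18, 7.61 and 7.12 CPM in shControl. The 95% interval of its fold difference was 0.842 to 1.25 (edgeR adjusted p = 0.90).

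**Figure D5:**
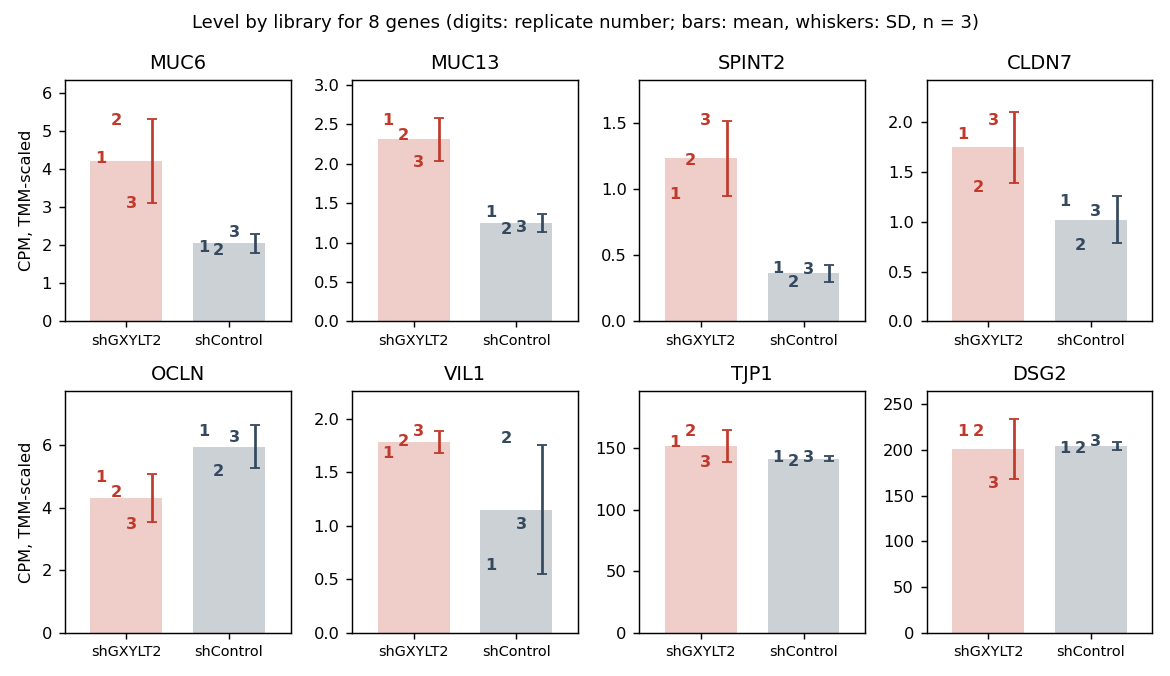
CPM of 8 genes in each library, with shGXYLT2 left of shControl; digits give the replicate number, bars the mean and whiskers the SD over 3 libraries. MUC6, MUC13, SPINT2 and CLDN7 are higher in every shGXYLT2 library, OCLN is lower in every one, and replicate 3 is the lowest shGXYLT2 library for TJP1 and DSG2.

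CLDN7 and OCLN came close to the threshold in opposite directions. CLDN7 had 1.88, 1.34 and 2.02 CPM in shGXYLT2 and 1.21, 0.761 and 1.10 CPM in shControl, with groups that did not overlap (log2 fold change 0.76, SE 0.283, edgeR adjusted p = 0.0875, 0.0579 to 0.254 over the alternatives). OCLN had 4.95, 4.47 and 3.45 CPM in shGXYLT2 and 6.43, 5.15 and 6.24 CPM in shControl, also without overlap (log2 fold change -0.47, SE 0.162, adjusted p = 0.0669, 0.0542 to 0.224). Neither passed under any of the 13 alternatives. The fold difference of PKP2 was 1.27, with an interval of 1.01 to 1.61 (adjusted p = 0.18).

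The expressed junction genes kept within a narrow interval. None of the 6 passed the edgeR test, and their 95% intervals together reached from a fold of 0.818 (DSC2) to 1.19 (DSP). TJP1 had a fold of 1.08 (adjusted p = 0.328), and without shGXYLT2 replicate 3 its adjusted p was 0.017, in a range of 0.017 to 0.698 over the alternatives. The log2 fold change of DSG2 was -0.02 with an interval of -0.24 to 0.19, and without the same library it was 0.11 (adjusted p = 0.114, 0.114 to 0.993 over the alternatives).

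The gastrointestinal lineage genes that could be tested, CDX2 and VIL1, did not pass the edgeR test. CDX2, a transcription factor of intestinal identity, had 5.35, 4.27 and 4.31 CPM in shGXYLT2 and 5.68, 5.15 and 4.61 CPM in shControl, overlapping between groups (fold interval 0.723 to 1.14, edgeR adjusted p = 0.63). Its relative CDX1 was silent, and HNF4A, a hepatocyte and gut factor, had a single count in the 6 libraries. VIL1, which encodes the microvillus protein villin, had 1.68, 1.79 and 1.88 CPM in shGXYLT2 and 0.632, 1.81 and 1.01 CPM in shControl (adjusted p = 0.195). Without shControl replicate 2, the highest of its group, the VIL1 adjusted p was 0.0443, in a range of 0.0443 to 0.569 over the alternatives. VIL1 is uncertain, since 44.0% of its annotated exonic bases overlap exons of USP37 on the opposite strand, which averaged 32.3 CPM in shGXYLT2 and 35.9 CPM in shControl.

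The low-count filter kept 19 trace genes out of the test. Fitted without a filter, all 19 could be tested, and 0 passed the edgeR test (lowest adjusted p = 0.207, for ESRP1, the only one of them with an unadjusted p below 0.05). KRT7 had 4, 4 and 9 counts in shGXYLT2 and 1, 1 and 2 in shControl, and TJP3 had 7, 3 and 4 against 1, 2 and 1. In that fit the edgeR adjusted p was 0.351 for KRT7 and 0.545 for TJP3. ELF3 had 3, 4 and 4 counts in shGXYLT2 and 1, 2 and 0 in shControl. Of these 19 genes 10 had 10 or fewer counts over all libraries.

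Of 35 other junction genes 21 were tested, and 2 rose and 1 fell, which is 14.3% called, near the 12.2% of all tested genes; 5 passed without shGXYLT2 replicate 3, 1 without shGXYLT2 replicate 2 and 0 without shControl replicate 1. F11R, which encodes the junctional adhesion molecule JAM-A, averaged 2.89 ± 0.377 CPM in shGXYLT2 and 1.52 ± 0.282 CPM in shControl (SD, n = 3 each; edgeR adjusted p = 0.0096), and its adjusted p was 0.0578 without shControl replicate 1 (0.0030 to 0.0578 over the alternatives). PATJ, a polarity scaffold, averaged 22.2 and 17.8 CPM (adjusted p = 0.0228, 0.0096 to 0.12 over the alternatives, with the call lost without shGXYLT2 replicates 1 or 2 or shControl replicates 1 or 2). CGNL1, which encodes paracingulin, fell to 1.11 CPM in shGXYLT2, against 2.03 CPM in shControl (adjusted p = 0.0263); 5 of 13 alternatives lost this call, 4 of them by leaving out shGXYLT2 replicate 2 or any shControl replicate, in a range of 0.0218 to 0.0865. VCL and CTNNA1, actin linkers that are not confined to epithelia and the highest of the list per kb, averaged 482 and 302 CPM in shGXYLT2 and 450.4 and 315 CPM in shControl, and did not pass.

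Of 20 further epithelial regulators and surface genes 9 were tested, and 0 rose and 3 fell, against 6.84% lower over all tested genes; without the call of KLF5, which most alternatives lost, 2 remain. AP1M2, the epithelial form of the clathrin adaptor AP-1 subunit, fell to 4.03 ± 1.02 CPM in shGXYLT2, against 8.19 ± 1.37 CPM in shControl (SD, n = 3 each) with a log2 fold change of -1.02 (edgeR adjusted p = 5.4e-04), and was called under all 13 alternatives. CDS1, a CDP-diacylglycerol synthase, fell to 3.98 CPM in shGXYLT2, against 6.33 CPM in shControl (adjusted p = 0.0061), likewise under all 13. KLF5, a transcription factor of epithelial progenitors, averaged 79.2 and 91.3 CPM (adjusted p = 0.0456) and lost its call under 9 of the 13 alternatives, among them each that left out a library, in a range of 0.043 to 0.21. Of 15 other keratins 3 were tested and 0 passed, with 2 at an unadjusted p below 0.05 and 1 passing without shGXYLT2 replicate 3. Of 22 other gastric genes 2 were tested and of 13 intestinal genes 1, and 0 passed, with 0 at an unadjusted p below 0.05 in either list (edgeR). DESeq2 called 0 in each of these 3 lists.

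Markers of other cell types set the context of these levels. The 12 mesenchymal markers summed to 5528 to 5944 CPM in shGXYLT2 libraries and 6063 to 6425 CPM in shControl libraries. Of 11 tested, 3 rose and 6 fell, which is 81.8% called, against 12.2% of all tested genes. Small folds were among the calls, such as 0.862 for COL5A1 and 1.19 for S100A4. The list was chosen with earlier results of these data known, so this share is a description only. Whether the high levels of these genes set this share was not tested. COL1A1, a collagen chain, fell to 541 CPM in shGXYLT2, against 823 CPM in shControl, and FN1, which encodes fibronectin, rose to 78.6 CPM in shGXYLT2, against 38.6 CPM in shControl. TAGLN, POSTN, SPARC, ACTA2 and COL5A1 also fell. COL1A2, another collagen chain, rose to 66.2 CPM in shGXYLT2, against 51.9 CPM in shControl, and S100A4 rose as well. COL5A1 and S100A4 each lost the call under 5 of 13 alternatives, and ACTA2 under 1. COL3A1, at 1671 CPM in shGXYLT2 and 1579 CPM in shControl, did not pass. The 46 epithelial and lineage genes summed to 584 to 677 CPM in shGXYLT2 and 622 to 643 CPM in shControl. These sums are not scaled for gene length, and a few genes make up most of each, VIM and COL3A1 foremost among the mesenchymal markers. They therefore do not measure epithelial against mesenchymal content. The 6 fibroblast markers summed to 553 to 591 CPM in shGXYLT2 and 459 to 478 CPM in shControl. DCN, LUM and THY1 passed the test, the first and second of them higher and THY1 lower, which is 50% of the 6 tested. The part of these markers in the changes of the epithelial genes was not tested. Leukocyte markers summed to 1.57 to 2.36 CPM in shGXYLT2 and 1.84 to 2.22 CPM in shControl, with CD3E and HLA-DRA at 0, and endothelial markers to 0.488 to 0.958 CPM in shGXYLT2 and 0.703 to 1.17 CPM in shControl, with PECAM1, CDH5 and KDR at 0.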

How the data were processed

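An unnormalized table, deposited by the authors, gave estimated counts of every gene in 6 libraries, in which 12.3% of values were not whole. The tools listed per the submitters' processing notes are fastp, HISAT2 and StringTie, with the build GRCh38.p13. The library kit was stranded per the labels' protocols. Which tool did which step, how reads were counted and whether strand was used: not given in the sources used here. Gene lengths in the table have no stated definition.

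Samples were grouped by their titles. Estimated counts were rounded. edgeR 4.0.16 in R 4.3.3 was run over all genes with filterByExpr (10 counts, or 0.447 CPM, in 3 libraries), TMM and a robust quasi-likelihood fit, with group as the only term. P-values are two-sided. CPM values are scaled by TMM. Alternatives used DESeq2 1.42.0, limma 3.58.1, other scalings and filters, a replicate block, and each library left out. A chi-square statistic per degree of freedom was 5.86 to 10.95 within shGXYLT2 and 1.95 to 3.97 within shControl, and every library was kept as a replicate. Positions, gene types and overlaps came from GENCODE 29 (GRCh38), promoters from a set of RefSeq windows (GRCh38.p14). Figures were made with Python 3.11.15 and matplotlib 3.10.9.

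All 46 genes were described; from other lists, genes past the threshold (up to 5) and the 2 highest per kb were to be named. CTNNB1, MUC2, CDH17, SNAI1, SNAI2, ZEB2, TWIST2, COL1A2, COL5A1, ACTA2, S100A4, USP37 and the cell type markers at 0 were chosen outside this rule. Genes it names in lists of sparse markers are left out. The members and lists were chosen with earlier results of these data known.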

Additional observations from a re-analysis of the deposited data

How the results depend on the processing

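Over 243 alternative values for single tested genes of the 46, 237 kept their side of the threshold, 4 (all MUC13) lost the call, 2 (TJP1 and VIL1) gained one and 0 called values changed sign. The number of changed members, all risen, was 3, against 1 with DESeq2, where SPINT2 had no adjusted p, and 2 to 4 with 1 library left out, with 0 fallen throughout. The number of changed genes overall was 1907, and 960 to 2347 with 1 library left out, lowest without shControl replicate 3 (960), 1 (990) and 2 (1152); the cause was not tested. The other lists held 18 changed genes, and 12 to 22 with 1 library left out. With 1 library left out, silent genes numbered 8 to 10, trace genes 20 to 22, low genes 10 to 11 and expressed genes 6. The titles share replicate numbers, but same-numbered libraries did not deviate together (correlations of -0.0002, -0.08 and -0.08), and a second set of numbers in the labels differs between the libraries titled replicate 2. A fit with the title's number as a block called 3 of the 46, MUC6, MUC13 and SPINT2. Depth limits the 30 silent and trace genes: 27 were below the filter, and without a filter the 19 trace genes among them were tested and 0 passed, which leaves the 8 silent genes untested.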
